A study of Mus musculus with 12 samples.

Results

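The mu-class glutathione transferases are the 7 mouse genes Gstm1 to Gstm7, picked by symbol from the 36047 annotated genes of the liver libraries. Estimated read counts of each gene, the sum over its transcripts, were compared across 4 diet groups. The family was chosen after Gstm1 had been seen to differ between HF.SAAR and HF.Ctrl livers, so the values of that comparison are given here as a description, with no test. No other threshold was used to choose the members, and all 7 passed the filter on low counts, which 14670 genes passed.

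The livers came from 12 male C57Bl/6J mice, 5 to 6 months old, 3 mice in each group. After 7 days on the diets and 4 h without food, the livers were taken, and a library of polyadenylated RNA was sequenced for each mouse. RF.Ctrl mice ate a regular-fat control diet and RF.SAAR mice a regular-fat diet restricted in sulfur amino acids, with fat at 18% of the energy in both. HF.Ctrl and HF.SAAR mice ate the high-fat versions, with fat at 60% of the energy. Controls shared part of the restriction, because every diet lacked cysteine. The SAAR diets also held less methionine, with glutamic acid making up the difference. The mice were housed singly, and the study's methods describe deuterium-labeled body water for its protein work on mice of the same experiment. The regular-fat and high-fat diets had different suppliers, so fat and supplier cannot be told apart in a comparison of HF with RF. The study also reports that mice on high fat ate fewer grams of food and so less protein and sulfur amino acids. Fat and amino acid intake therefore cannot be told apart either. The labels do not say which animals shared a batch, and p-values measure the spread between single mice.

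Glutathione transferases join glutathione, the tripeptide of glutamate, cysteine and glycine, to reactive electrophiles, so that the conjugate can be exported and broken down to a mercapturate. The mu class is a family of cytosolic enzymes that act as dimers, and in rodent liver it is among the most abundant of the classes. It is known for conjugating epoxides and products of lipid peroxidation. Several of its genes are textbook targets of NRF2, a transcription factor that is freed when its partner KEAP1 is modified by electrophiles. The glutathione that these enzymes consume needs cysteine, which the liver can make from methionine.

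In GRCm38 the 7 genes lie side by side on chromosome 3, in a stretch of 149.074 kb from 107895821 to 108044894. Gstm5, at 107895821 to 107898686, is on the forward strand. The others are on the reverse strand and follow in the order Gstm7 (107926334 to 107931817), Gstm6 (107938847 to 107943749), Gstm3 (107963696 to 107969283), Gstm2 (107981702 to 107986453), Gstm1 (108012255 to 108017973) and Gstm4 (108040408 to 108044894). A single transcript of 8 exons held most of the counts of each gene. Its share of the gene's counts over all mice was 97.4% for Gstm1, 99.2% for Gstm2, 93.8% for Gstm4, 94.99% for Gstm5, 92.9% for Gstm6 and 86.3% for Gstm7, and Gstm3 has 1 transcript in the annotation.

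The sequences matter here because near-identical copies share reads. A stretch of 60 coding bases of each leading transcript is shown 5′ to 3′, from the GENCODE transcripts, with capitals where a base differs from Gstm1 at the aligned place. It covers coding bases 13 to 72, and the aligned bases 22 to 81 in Gstm5, whose coding part is longer (675 bases against 657 in each of the others).
Gstm1: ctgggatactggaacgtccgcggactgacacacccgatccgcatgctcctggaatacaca
Gstm3: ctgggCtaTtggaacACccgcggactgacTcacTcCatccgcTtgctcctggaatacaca
Gstm2: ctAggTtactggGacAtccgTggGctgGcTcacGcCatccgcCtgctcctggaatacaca
Gstm6: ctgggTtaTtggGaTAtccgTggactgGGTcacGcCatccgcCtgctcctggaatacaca
Gstm4: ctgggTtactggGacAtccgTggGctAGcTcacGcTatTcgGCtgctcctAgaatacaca
Gstm7: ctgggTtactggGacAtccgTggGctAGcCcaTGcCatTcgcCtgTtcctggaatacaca
Gstm5: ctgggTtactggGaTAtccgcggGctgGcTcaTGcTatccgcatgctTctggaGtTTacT
In this stretch Gstm3 differed from Gstm1 at 8 of the 60 bases, Gstm2 at 11, Gstm6 at 12, Gstm4 and Gstm7 at 14 each, and Gstm5 at 15.

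Over the whole coding sequence Gstm1 and Gstm3 were the closest pair, with 89.5% of bases identical. Gstm1 matched Gstm2 at 86.0%, Gstm6 at 82.8%, Gstm7 at 82.6% and Gstm4 at 80.2%. Gstm5 stood apart, at 67.9% to 70.8% with the other 6 genes. Read assignment by kallisto rests on exact words of 31 bases, so the words that a transcript shares with other genes show where its reads could be divided. Of the words of the leading Gstm1 transcript, 18.3% also occur in a transcript of another member, most of them (195 of 1259 words) in Gstm3. This share was 22.4% for Gstm3, 9.71% for Gstm6, 6.48% for Gstm2, 3.04% for Gstm4 and 1.86% for Gstm7, and Gstm5 shared 0 of its 915 words with any gene. Further copies in the annotation raise the shared part when all genes of the deposited files are counted, to 34.3% for Gstm1 and 37.7% for Gstm3. These copies held almost no counts: Gm8834 and Gm6665 were listed at 0 in every mouse, and Gstm2-ps1 did not exceed 2.07 estimated counts in any. Most words of each leading transcript were its own. Estimated counts per mouse ran from 6760 to 23957 for Gstm1 and from 178 to 1181 for Gstm3. An unknown part of the counts of Gstm3 could therefore belong to the far more abundant Gstm1. How much was not tested.

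**Figure D1:**
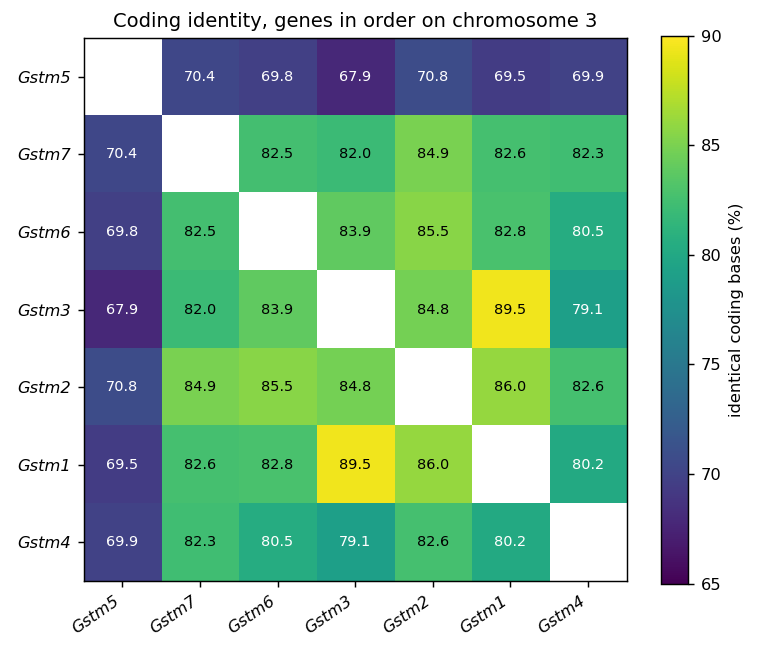
Percent of identical coding bases between the leading transcripts of each pair of genes, with the genes in their order along chromosome 3. Gstm1 and Gstm3 are the closest pair at 89.5%, and the row of Gstm5 stays between 67.9% and 70.8%.

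RefSeq windows on GRCm38.p6 of 250 bases before to 50 bases after the start were found for all 7 genes, 12 windows in all. They were searched on both strands for the NRF2 core TGACNNNGC, the C/EBP-ATF element TGATGNAA and the STAT5 element TTCNNNGAA. These letters occurred in 12.4%, 3.97% and 8.30% of all 32851 windows. Among the windows nearest to the leading transcripts' starts, 1 of 7 held the NRF2 core, that of Gstm5, shown here with the core in capitals because it was the match nearest a main start.
Gstm5 (chr3:107895786-107895845, forward strand): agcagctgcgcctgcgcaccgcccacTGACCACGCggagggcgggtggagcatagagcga
A second start of Gstm7 also had the NRF2 core and a second start of Gstm6 the STAT5 element, and the C/EBP-ATF element occurred in 0 of the 12 windows. The search covers these letters in these windows and no other part of the locus.

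Per length, Gstm1 was by far the main member. Its abundance averaged 822 TPM, an abundance corrected for transcript length, over the 12 mice and ranked 123 among all genes. Gstm6 followed at 96.0 TPM, Gstm2 at 87.1, Gstm7 at 66.8, Gstm3 at 31.9, Gstm4 at 30.9 and Gstm5, better known from brain and testis, at 12.9. Gstm1 ranged from 363 TPM in an HF.Ctrl mouse to 1341 in an HF.SAAR mouse, so it stood above every other member in every mouse.

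The order below Gstm1 was not fixed. In HF.Ctrl livers Gstm6 (68.0 to 75.4 TPM) lay above Gstm2 (34.4 to 42.2 TPM) in every mouse, whereas in HF.SAAR livers Gstm2 (137 to 185 TPM) lay above Gstm6 (96.6 to 120 TPM). In RF.Ctrl Gstm6 (95.4 to 119 TPM) was above Gstm2 (45.1 to 81.6 TPM), and in RF.SAAR their ranges overlapped, at 83.1 to 108 TPM for Gstm6 and 79.5 to 104 TPM for Gstm2. Gstm3 and Gstm4, near each other on average, overlapped in RF.Ctrl (15.98 to 32.3 and 19.5 to 27.7 TPM), in RF.SAAR (33.3 to 40.01 and 32.0 to 41.6 TPM) and in HF.SAAR (44.8 to 62.4 and 35.9 to 50.4 TPM). In HF.Ctrl Gstm3 (10.5 to 10.7 TPM) was below Gstm4 (16.8 to 21.7 TPM) and close to Gstm5 (8.60 to 9.51 TPM).

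The 7 genes together summed to 866 ± 144 TPM in RF.Ctrl (SD, n = 3), 1398 ± 159 in RF.SAAR, 603 ± 56.1 in HF.Ctrl and 1722 ± 98.6 in HF.SAAR. The lowest SAAR mouse on either fat level (1245 TPM, in RF.SAAR) was above the highest control (1016 TPM, in RF.Ctrl). As normalized CPM, counts scaled to library sizes with trimmed mean of M-values (TMM) factors, the sums were 866 ± 98.2, 1184 ± 43.5, 672 ± 35.6 and 1532 ± 91.4 in the same order. The SAAR to Ctrl ratio of the sums was therefore 1.61 in TPM on RF and 2.85 on HF, and in normalized CPM it was 1.37 on RF and 2.28 on HF. TPM are scaled to a common sum without TMM factors. With counts scaled by library size alone, the median log2 fold change of all genes was 0.16 on RF and 0.17 on HF. The part of such a common shift in the TPM ratios was not tested. Gstm1 held 66.6 ± 1.58% of the summed TPM in RF.Ctrl and 75.0 ± 0.751% in RF.SAAR (SD, n = 3), and 66.3 ± 1.23% in HF.Ctrl and 73.2 ± 2.84% in HF.SAAR. The share of Gstm6 went from 12.1 ± 1.18% in RF.Ctrl to 6.88 ± 0.193% in RF.SAAR, and from 12.1 ± 0.536% in HF.Ctrl to 6.44 ± 0.845% in HF.SAAR. Gstm7 likewise took 7.72% in RF.Ctrl and 5.05% in RF.SAAR, and 8.78% in HF.Ctrl and 4.50% in HF.SAAR. Liver was sequenced in bulk, so fewer cells of a type and less RNA per cell cannot be told apart.

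**Figure D2:**
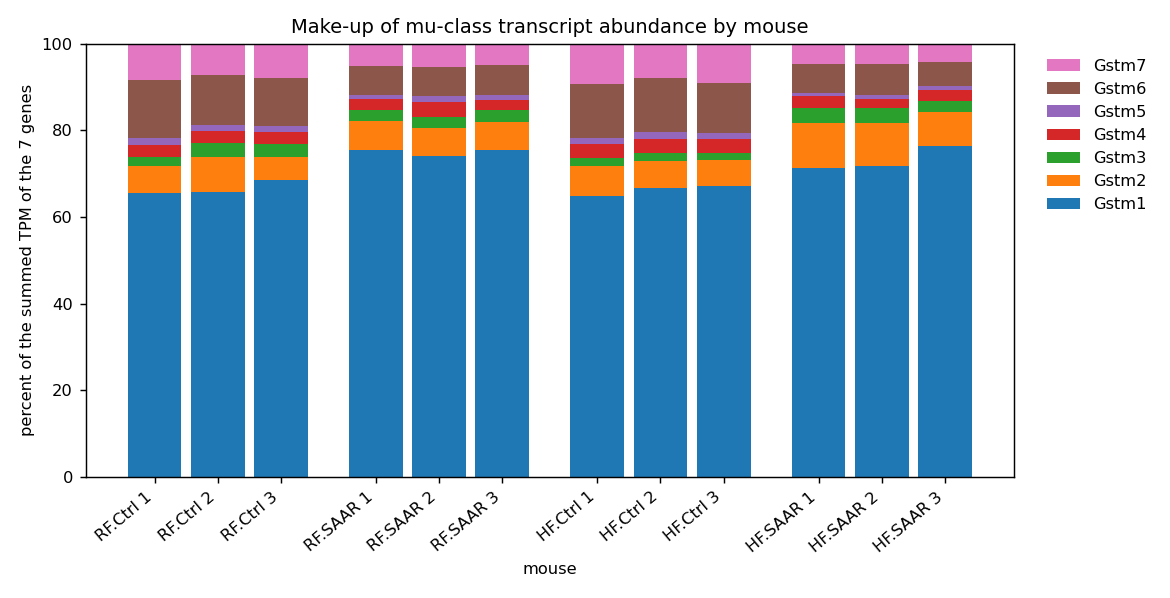
Percent of the summed TPM of the 7 genes held by each gene, a stacked bar for each mouse. Gstm1 (bottom segment) takes about 66% in the control groups and 73 to 75% in the SAAR groups, and the segments of Gstm6 and Gstm7 are thinner in the SAAR mice.

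Whether restriction moved the family without added fat was read from RF.SAAR vs. RF.Ctrl. In these livers Gstm1 rose and no other member passed the test. Gstm1, the main hepatic mu-class enzyme, measured 531, 665 and 599 normalized CPM in the 3 RF.Ctrl mice and 953, 883 and 884 in the 3 RF.SAAR mice. The groups did not overlap. The log2 fold change was 0.60 (SE 0.094), a fold of 1.52 with a 95% interval of 1.32 to 1.74, with an adjusted p of 0.00657 (edgeR quasi-likelihood test, Benjamini-Hochberg adjustment over 14670 genes). Of the members 1 of 7 was called higher, against 0.600% of all genes tested.

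Gstm4 was the only other member whose RF.SAAR mice (45.04, 57.3 and 40.3 CPM) all lay above the RF.Ctrl mice (30.4, 37.5 and 29.5 CPM). Its log2 fold change was 0.55 (SE 0.14) with an adjusted p of 0.0818, and DESeq2 gave 0.56 with an adjusted p of 0.0144. The call for Gstm4 thus depended on the tool, and also on the scaling within edgeR. There, library size alone gave 0.71 (adjusted p = 0.0206), a scaling that put the median of all genes at 0.16. Offsets for effective length gave 0.46 (adjusted p = 0.176). With a mouse left out, the edgeR value ran from 0.39 to 0.66 and the adjusted p from 0.067 to 0.283. The 2 members with RF.SAAR fully above RF.Ctrl, Gstm1 and Gstm4, compare with 8.51% of all genes that separated this way.

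Gstm2 gave 38.6, 63.0 and 36.9 CPM in RF.Ctrl and 65.8, 59.5 and 61.6 CPM in RF.SAAR. The RF.Ctrl mouse at 63.0 CPM reached into the restricted group, and its log2 fold change was 0.43 (SE 0.19) at an adjusted p of 0.351 in edgeR. Without that mouse the value was 0.72 (adjusted p = 0.0615). Gstm3 gave 18.4, 33.1 and 28.9 CPM in RF.Ctrl and 33.5, 32.9 and 34.2 CPM in RF.SAAR, a log2 fold change of 0.32 (SE 0.20) at an adjusted p of 0.562 in edgeR. Here the restricted mice were close together, and the spread was among the controls. The value was 0.11 without RF.Ctrl mouse 1 and 0.51 without RF.Ctrl mouse 2.

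Gstm6 pointed the other way. It measured 93.4, 101 and 81.3 CPM in RF.Ctrl and 75.3, 68.2 and 70.1 CPM in RF.SAAR. All 3 restricted mice were below the controls, as in 9.70% of genes, yet the log2 fold change of -0.37 (SE 0.14) did not pass the test (adjusted p = 0.228 in edgeR). Gstm7 had overlapping groups (57.5 to 63.8 CPM in RF.Ctrl, then 50.4 to 58.8 CPM) and a log2 fold change of -0.18 (SE 0.099) at an adjusted p of 0.502 in edgeR. Gstm5 ranged from 8.45 to 9.67 CPM in the controls and from 7.20 to 11.1 CPM under restriction, with a log2 fold change of -0.05 (SE 0.16) at an adjusted p of 0.948 in edgeR. Its sign turned when libraries were scaled by size alone (0.11), a scaling under which the median of all genes was itself at 0.16. The median over the 7 members was 0.32, beside -0.0013 over all genes tested.

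**Figure D3:**
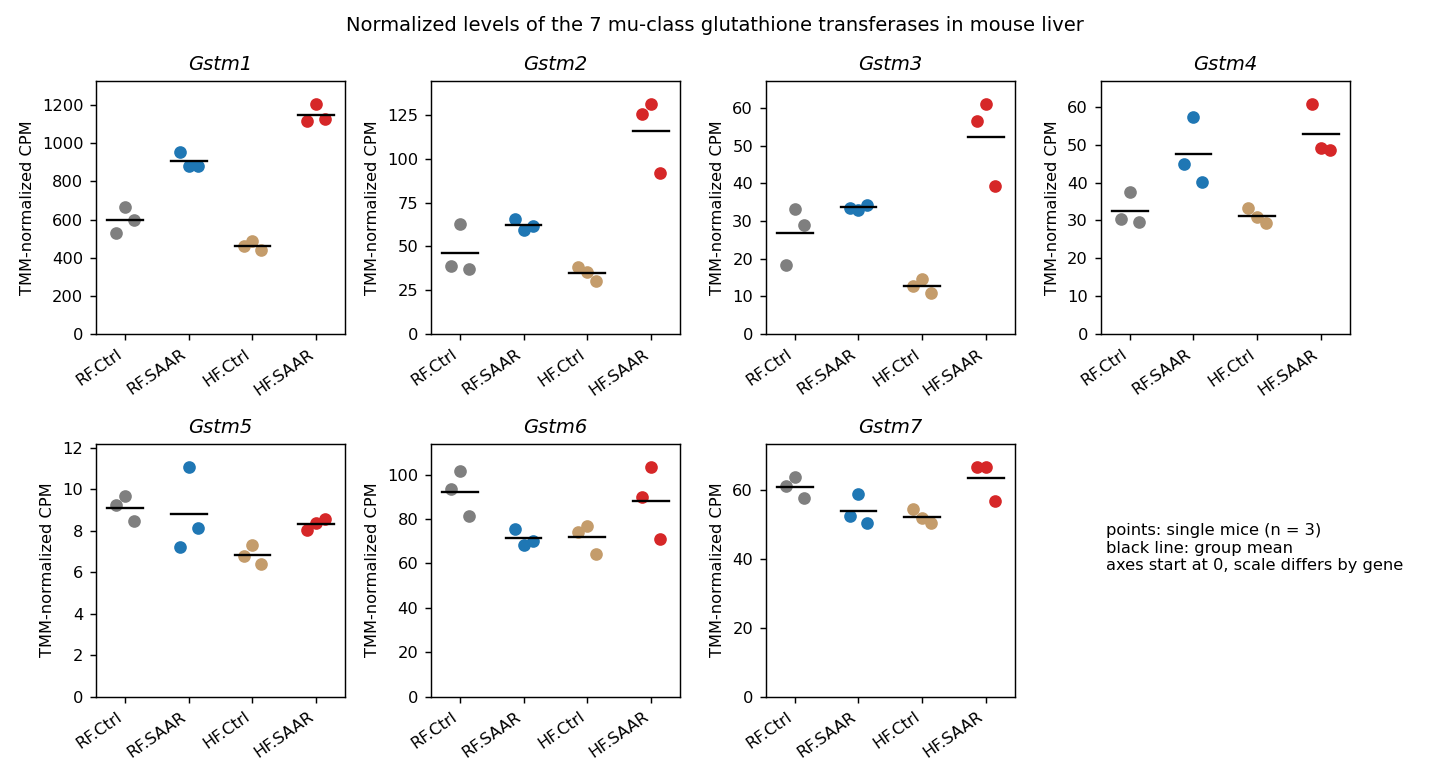
TMM-normalized CPM of each gene in each mouse (points, n = 3 a group) with the group mean (black line), on linear axes that start at 0 and differ between genes. All SAAR mice stand above their controls on HF for 6 of the 7 genes, and on RF for Gstm1 and Gstm4.

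On high fat the same diet contrast spanned a wider range of values. These are the values that led to the choice of the family and carry no test here. Gstm1 measured 461, 485 and 442 CPM in HF.Ctrl and 1117, 1207 and 1128 CPM in HF.SAAR, a log2 fold change of 1.31 (SE 0.095). The members next to it in sequence had larger log2 fold changes. Gstm3, the closest copy of Gstm1, measured 12.8, 14.7 and 10.9 CPM in HF.Ctrl and 56.5, 61.0 and 39.2 CPM in HF.SAAR, a log2 fold change of 2.03 (SE 0.21). Gstm2 measured 38.2, 35.5 and 30.2 CPM in HF.Ctrl and 126, 132 and 91.8 CPM in HF.SAAR, a log2 fold change of 1.75 (SE 0.20).

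Gstm4 followed with 33.2, 30.97 and 29.3 CPM in HF.Ctrl and 60.8, 49.1 and 48.7 CPM in HF.SAAR, a log2 fold change of 0.76 (SE 0.14). Gstm5, Gstm6 and Gstm7 had log2 fold changes of 0.29 (SE 0.16), 0.30 (SE 0.14) and 0.28 (SE 0.099). Of these, Gstm6 had overlapping groups (64.1 to 76.95 CPM in HF.Ctrl, 71.0 to 104 CPM in HF.SAAR). Gstm5 (6.40 to 7.28 CPM in HF.Ctrl, 8.04 to 8.57 CPM in HF.SAAR) and Gstm7 (50.4 to 54.3 CPM, then 56.8 to 66.7 CPM) did not overlap. Groups separated upward for 6 members beside 8.89% of genes, from which nothing is read, because the choice of the family used this contrast.

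HF.SAAR mouse 3 was the lowest of its group for Gstm2, Gstm3, Gstm4, Gstm6 and Gstm7. It also carried the largest sum of the 34 pancreatic acinar marker genes of all 12 mice, 20410 CPM, where the other mice ranged from 43.9 to 7723. Without this mouse the log2 fold changes on HF were 1.33 for Gstm1, 1.89 for Gstm2, 2.20 for Gstm3 and 0.82 for Gstm4, all at least as large as with it. Leaving the acinar genes out of the library sizes moved no member's log2 value by more than 0.00091 in any comparison. That setting changes only the scaling of the libraries. Whether acinar tissue altered the members' counts was not tested.

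**Figure D4:**
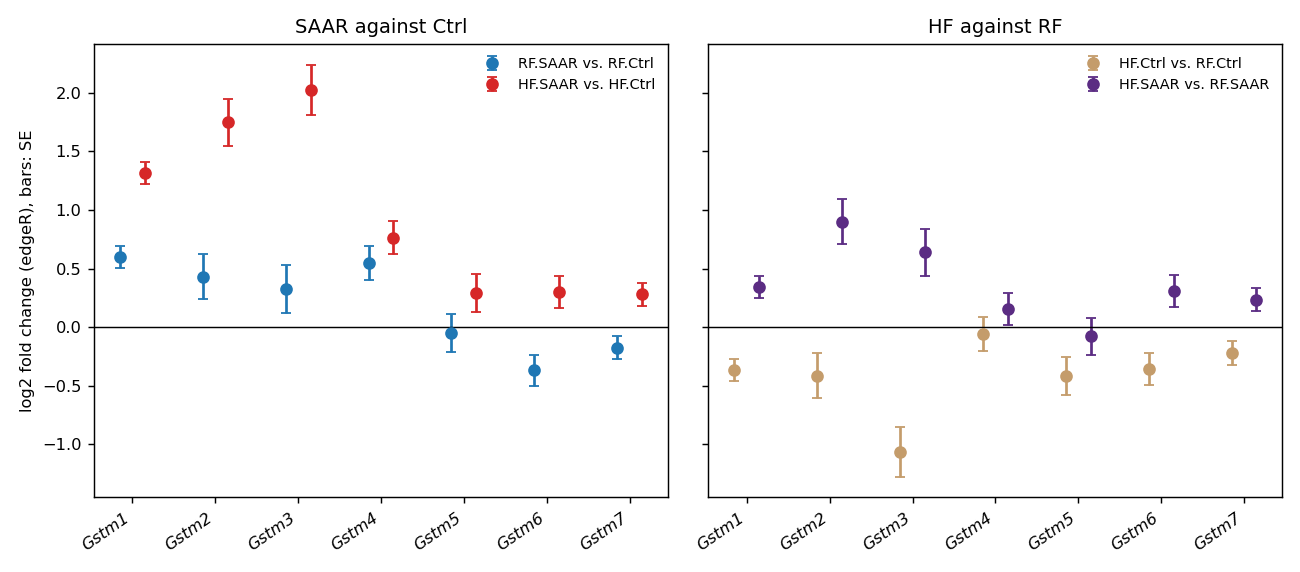
Log2 fold changes of the 7 genes from the edgeR fit, with bars of 1 SE, for SAAR against Ctrl (left) and HF against RF (right). On the left the HF values of Gstm1, Gstm2 and Gstm3 (1.31, 1.75 and 2.03) sit above their RF values (0.60, 0.43 and 0.32), and on the right these genes have negative values in control mice and positive values in SAAR mice.

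Whether the response to restriction differed with fat was read from the interaction, the HF response minus the RF response, which contains the HF comparison already described. Its values therefore carry no test here either. The interaction was 1.70 (SE 0.29) for Gstm3, 1.32 (SE 0.27) for Gstm2 and 0.71 (SE 0.13) for Gstm1.

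Gstm6 had an interaction of 0.67 (SE 0.19), with an RF value of -0.37 and an HF value of 0.30, and Gstm7 of 0.46 (SE 0.14), with -0.18 and 0.28. Gstm5 (0.34, SE 0.23) and Gstm4 (0.21, SE 0.20) had the values nearest to 0. The estimate was above 0 for all 7 genes, which share mice and, for Gstm1 and Gstm3, words of sequence. Kupffer cell markers also had positive values, with 3 of 7 (Adgre1, Marco and Timd4) at an unadjusted p under 0.05 in the interaction, beside 462 of 14670 genes. Their part in the members' values was not tested.

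The fat comparisons use the same mice as the diet comparisons and give the same levels from the other side. Each holds HF.Ctrl, HF.SAAR or both, the groups whose difference led to the choice of the family. The p-values and calls of members in them are therefore descriptions and not independent tests. In control mice, high fat went with lower values. HF.Ctrl lay below RF.Ctrl in every mouse for Gstm1, Gstm3, Gstm5, Gstm6 and Gstm7, 5 of the 7 members beside 4.42% of all genes. No member passed the edgeR test, as for all genes in that comparison (0% called, 527 genes at an unadjusted p under 0.05 and 31 called by DESeq2). An unadjusted p under 0.05 was found for 5 members beside 3.59% of genes. DESeq2 called 1, Gstm3, beside 0.130% of the 23892 genes to which it gave a p. Of the 7 Kupffer cell markers, 3 (Adgre1, Marco and Timd4) were lower here at an unadjusted p under 0.05, and their part in the members' values was not tested. Gstm3 measured 18.4, 33.1 and 28.9 CPM in RF.Ctrl and 12.8, 14.7 and 10.9 CPM in HF.Ctrl, a log2 fold change of -1.07 (SE 0.21) with an adjusted p of 0.268 in edgeR and 0.00223 in DESeq2. Gstm1 had a log2 fold change of -0.37 (SE 0.094) at an adjusted p of 0.688 in edgeR, and Gstm4 was nearest to 0 at -0.06 (SE 0.14).

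In restricted mice the values pointed upward. HF.SAAR lay above RF.SAAR in every mouse for Gstm1, Gstm2 and Gstm3, 3 of the 7 members beside 5.47% of genes. No member passed the edgeR test (0.0477% of genes did), and 5 had an unadjusted p under 0.05 beside 5.59% of genes. DESeq2 called 1, Gstm2, beside 0.356% of the 23892 genes to which it gave a p. All 31 tested acinar markers were higher in the same comparison at an unadjusted p under 0.05, and their part in the members' values was not tested. The log2 fold change of Gstm2 was 0.90 (SE 0.19), with an adjusted p of 0.273 in edgeR and 0.00374 in DESeq2. Gstm3 had 0.64 (SE 0.20) at an adjusted p of 0.653 in edgeR and Gstm1 0.34 (SE 0.094) at an adjusted p of 0.515 in edgeR. Averaged over Ctrl and SAAR mice, the fat effect on Gstm1 was -0.01 (SE 0.066). In this comparison no member passed the edgeR test (0.0409% of genes did) or the DESeq2 test (0.519% of its 23892 genes with a p did). Of the members 1, Gstm5 at -0.25 (SE 0.11), had an unadjusted p under 0.05, beside 5.84% of genes.

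Gstm1 levels moved across the 12 mice most like 5 genes outside the family. Likeness was the root mean square difference between the log2 CPM of a gene and of Gstm1, each centred on its own mean. It was 0.16 for Nqo1, a quinone reductase, 0.16 for Pir, the iron-binding nuclear protein pirin, and 0.21 for Apcs, the pentraxin serum amyloid P. It was 0.21 for Rhod, a small GTPase of endosomes, and 0.22 for Mat1a, which makes S-adenosylmethionine from methionine in liver. The median over all genes tested was 0.58. These 12 mice are those in which Gstm1 was chosen, so the list is a description.

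Nqo1 was a scarce transcript beside Gstm1, at 3.54 ± 0.180 CPM in RF.Ctrl (SD, n = 3), 4.49 ± 0.517 in RF.SAAR, 2.42 ± 0.228 in HF.Ctrl and 6.42 ± 0.541 in HF.SAAR. It had the same order of group means as Gstm1. Mat1a, far more abundant, had RF.Ctrl mice at 2119 to 2221 CPM, RF.SAAR mice at 2369 to 3478, HF.Ctrl mice at 1837 to 1874 and HF.SAAR mice at 3060 to 3637. Within the family Gstm4 (0.26) and Gstm2 (0.27) were nearest to Gstm1 and Gstm3 came next (0.33), while Gstm7 (0.47), Gstm5 (0.48) and Gstm6 (0.52) lay farther off.

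**Figure D5:**
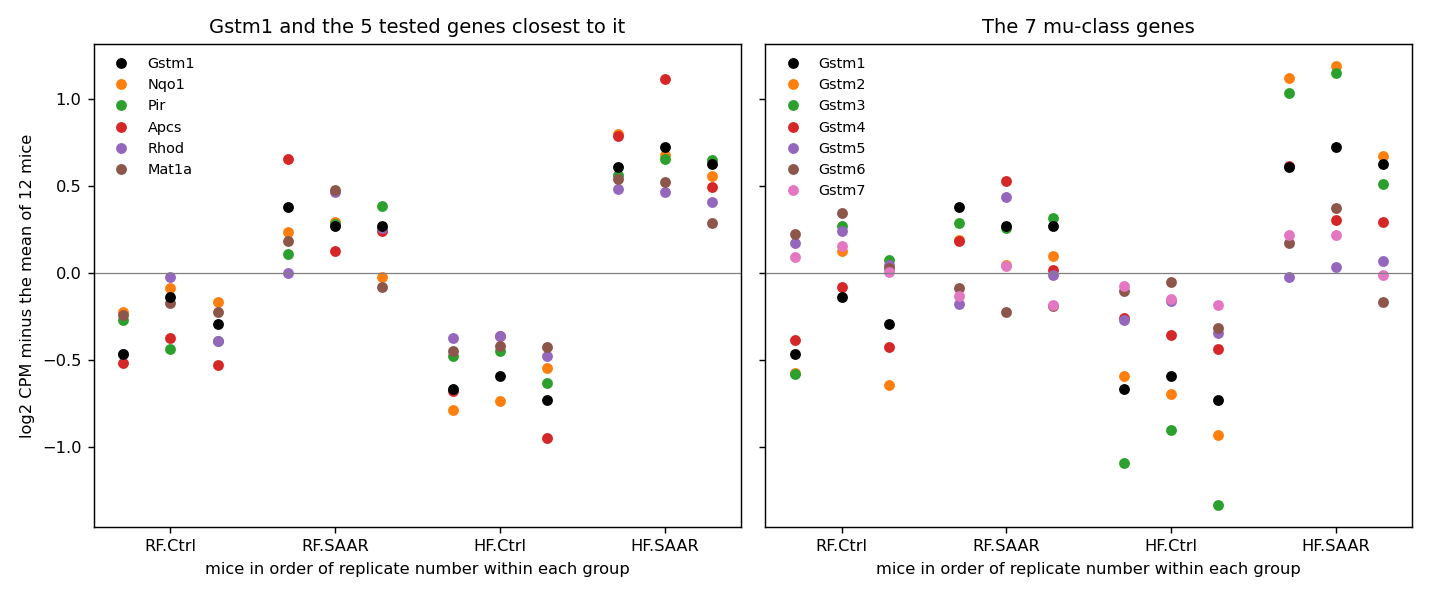
Log2 CPM of each gene minus its mean over the 12 mice, by mouse within group, for Gstm1 (black) and the 5 genes closest to it (left) and for the 7 members (right). The left panel shows all 6 genes low in HF.Ctrl and high in HF.SAAR, and on the right Gstm2 and Gstm3 spread beyond Gstm1 while Gstm5, Gstm6 and Gstm7 stay nearer to 0.

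Around the family, the other glutathione transferases counted 17 tested genes of 18. Of these, 1 was called higher in RF.SAAR vs. RF.Ctrl and 0 lower, with a median log2 fold change of 0.086. It was Gsta2, an alpha-class transferase, which went from 18.7 ± 2.74 CPM (SD, n = 3) to 44.9 ± 12.1 CPM, a log2 fold change of 1.26 (SE 0.18) at an adjusted p of 0.0043 in edgeR. Gsta2 was also higher in HF.SAAR (97.1 ± 13.3 CPM) than in RF.SAAR, with a log2 fold change of 1.11 (SE 0.17) at an adjusted p of 0.0452 in edgeR. On HF, where 1.01% of all genes were called higher, 3 were past the threshold upward, named after their values were seen: Gsta2 at 2.27, Mgst3 at 1.38 and Gstp3 at 1.15 in log2 fold change. The median over the list there was 0.52. At an unadjusted p under 0.05, 2 of the list were higher and 2 lower on RF, and 9 were higher and 1 lower on HF (1988 and 1825 of all genes). Mgst1, named after its values were seen, was lower in every SAAR mouse. It measured 2461.5 to 3231 CPM in RF.Ctrl and 1633 to 2060 in RF.SAAR, then 2597 to 3080 in HF.Ctrl and 1816 to 2555 in HF.SAAR. Groups separated downward in 1423 of 14670 genes on RF and 1316 on HF.

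Genes that supply glutathione did not pass the edgeR test in either diet comparison, 0 of 15 each. On each fat level 4 had an unadjusted p under 0.05, all of them higher in SAAR. Of all 14670 genes tested, 1988 had such a p on RF and 1825 on HF. Their median log2 fold change was 0.17 on RF and 0.39 on HF. For the export and breakdown of conjugates, 0 of 17 tested genes passed on RF, with a median of -0.15. An unadjusted p under 0.05 was found for 6, all of them lower, beside the same 1988 of all genes. On HF, 2 were past the threshold downward, named after their values were seen. They were Abcg2, an export pump (log2 fold change -0.60), and Nat8f2, of the N-acetyltransferase family that completes mercapturates (-0.60).

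NRF2 and its targets outside the family counted 24 tested genes, of which 3 rose and 0 fell in RF.SAAR vs. RF.Ctrl (median log2 fold change 0.20). Ephx1, the microsomal epoxide hydrolase, went from 265 ± 16.7 CPM to 459 ± 41.8 CPM (SD, n = 3), a log2 fold change of 0.79 (SE 0.10) at an adjusted p of 0.0024 in edgeR. Ugdh, which makes UDP-glucuronic acid, rose by 0.96 on the log2 scale (SE 0.15) at an adjusted p of 0.0049 in edgeR, and Aox1, an aldehyde oxidase, by 0.64 (SE 0.15) at an adjusted p of 0.0489 in edgeR. Nqo1, the gene closest to Gstm1, had 0.34 there. On HF, 5 were past the threshold upward (median 0.30), named after their values were seen: Nqo1 at 1.40, Cyp2a5 at 1.26, Ugdh at 0.72, Ephx1 at 0.60 and the transketolase Tkt at 0.45.

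The xenobiotic receptors CAR and PXR and their targets counted 18 tested genes of 20, with 0 higher and 1 lower on RF (median log2 fold change 0.045). Of all 14670 genes tested, 130 were called lower on RF and 141 on HF. Cyp2c50, a cytochrome P450, fell from 606 ± 24.7 CPM to 440 ± 33.2 CPM (SD, n = 3), a log2 fold change of -0.46 (SE 0.10) at an adjusted p of 0.0465 in edgeR. On HF the median was 0.19, with 0 past the threshold upward and 2 downward. These were Ces2a, a carboxylesterase, at -0.68 and Cyp2c50 at -0.48, where Ces2a was named after its values were seen. At an unadjusted p under 0.05, 2 of the list were higher and 4 lower on RF, and 7 were higher and 3 lower on HF. Of all 14670 genes tested, 1988 had such a p on RF and 1825 on HF. None of the genes of these 5 lists apart from Gsta2 passed the edgeR test in a fat comparison or in the interaction, where 0.00682% of all genes did.

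Hepatocyte markers were high in all libraries, with the 12 genes summing to between 81479 and 104669 CPM. All RF.SAAR sums (81479 to 89053 CPM) were below all RF.Ctrl sums (90264 to 104669 CPM), while HF.SAAR (82253 to 93320 CPM) and HF.Ctrl (83937 to 97550 CPM) overlapped. Of the 12 genes 0 passed the edgeR test in either diet comparison, with 2 at an unadjusted p under 0.05 in each. Of all 14670 genes tested, 1988 had such a p on RF and 1825 on HF. The part of the hepatocyte markers in the results was not tested. Total estimated counts lay between 16203094 and 21230092 per mouse. Skeletal muscle (236 to 829 CPM), stellate (266 to 361), endothelial (216 to 256), Kupffer cell (222 to 372) and adipocyte (5.83 to 29.6) marker sums overlapped between SAAR and Ctrl on both fat levels. Of these lists 1 gene passed the test, the stellate cell marker Lrat, which was lower in RF.SAAR than in RF.Ctrl (log2 fold change -0.86, SE 0.19) at an adjusted p of 0.0408 in edgeR. The 6 cholangiocyte markers summed to 35.2 to 38.7 CPM in HF.SAAR, below the 43.1 to 58.3 CPM of HF.Ctrl, and to 36.2 to 43.1 CPM in RF.SAAR beside 43.0 to 62.1 CPM in RF.Ctrl, and their part in the results was not tested. Acinar marker sums were above 1000 CPM in 2 of 3 HF.Ctrl, 2 of 3 HF.SAAR, 1 of 3 RF.Ctrl and 0 of 3 RF.SAAR mice. Of the 31 tested acinar genes, 31 were higher on HF at an unadjusted p under 0.05 both in HF.SAAR vs. RF.SAAR and in the averaged fat comparison, 0 of 31 were so in either diet comparison, and 0 passed the edgeR test after adjustment in any comparison.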

How the data were processed

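Liver RNA of 12 mice was sequenced as paired reads. The authors trimmed reads with cutadapt and ran kallisto against Ensembl transcripts of the mouse. Its estimated counts, as deposited, give each transcript its likely share of the reads, ambiguous reads included, with no normalization between mice. TPM was deposited too, which divides a count by the effective length (also deposited, in bases) and scales the result to a common sum. The counts are not independent molecules, and the uncertainty of read assignment is not part of the deposited values.

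Of 118489 transcripts, 116816 had an entry in GENCODE vM21 for GRCm38 and were summed by gene. Between 0.704% and 1.80% of a mouse's counts were unmatched. Counts were rounded and fitted in R 4.3.3 with edgeR 4.0.16: filterByExpr by group, then TMM factors, then a robust quasi-likelihood fit of the 12 mice, an F-test for each of 6 comparisons, and Benjamini-Hochberg adjustment with a threshold of 0.05. Dividing a log2 fold change by the root of its F gave the SE. CPM were taken on TMM-scaled library sizes. Log2 CPM for likeness had a prior count of 2.

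The alternatives were RLE factors, library size alone, a filter of at least 10 counts in every mouse, no filter, effective-length offsets, only the compared mice, DESeq2 1.42.0, acinar genes left out, the leading transcript alone, and each mouse left out. The members and the gene lists were chosen with earlier results of these data known, and the lists come from general knowledge. Named are all members, up to 3 called genes of each list in RF.SAAR vs. RF.Ctrl (smallest p), those called in a fat comparison or the interaction, and the 5 genes most like Gstm1. GEO's labels exchange the names of the diet and fat fields, and groups were read from the values.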

Additional observations from a re-analysis of the deposited data

How the results depend on the processing

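Beside the main fit, 9 other settings and 12 fits without a mouse gave 700 values for single members, of which 679 kept their direction. The count of members called in RF.SAAR vs. RF.Ctrl was 2 with library size alone and 2 with DESeq2, against 1. DESeq2 called 1 member in HF.SAAR vs. RF.SAAR, 1 in HF.Ctrl vs. RF.Ctrl and 3 in the interaction, against 0 each. Of all 23892 genes to which it gave a p, it called 85, 31 and 16 in the same order. Its own low-count filter can leave such a gene without an adjusted p, so the DESeq2 shares of all genes may be understated. DESeq2 called 591 genes in RF.SAAR vs. RF.Ctrl, library size alone 425 and the transcript fit 53, against 218. Library size alone put the median of all genes at 0.16 for RF.SAAR vs. RF.Ctrl. For HF.SAAR vs. HF.Ctrl it was at 0.17, and this scaling put 6 members past the threshold against 4, and 719 of all genes against 289. It reversed Gstm5 in RF.SAAR vs. RF.Ctrl (0.11), and Gstm4 (-0.0087) and Gstm7 (-0.052) in the averaged fat comparison. The summed level ratio on HF was 2.28 in normalized CPM against 2.85 in TPM. Without a mouse, the members called numbered 1 in RF.SAAR vs. RF.Ctrl in every fit, 3 to 4 in HF.SAAR vs. HF.Ctrl, where Gstm4 was lost without HF.Ctrl mouse 1, HF.Ctrl mouse 3 or HF.SAAR mouse 1, and 0 to 1 in the interaction, where Gstm3 was gained without RF.Ctrl mouse 1. Gstm4 was also lost in HF.SAAR vs. HF.Ctrl when its leading transcript was tested. Signs turned without a mouse for values near 0: Gstm5 in RF.SAAR vs. RF.Ctrl (-0.25 to 0.075) and HF.SAAR vs. RF.SAAR (-0.20 to 0.12), Gstm4 in HF.Ctrl vs. RF.Ctrl (-0.12 to 0.057), and in the averaged fat comparison Gstm1 (-0.052 to 0.029), Gstm4 (-0.0087 to 0.13), Gstm6 (-0.093 to 0.042) and Gstm7 (-0.015 to 0.044). Counts for HF.SAAR vs. HF.Ctrl, which the choice of the family used, and for the interaction that contains it are descriptions and not tests. The same holds for members in the fat comparisons, each of which holds HF.Ctrl, HF.SAAR or both. The causes were not tested. No paired analysis was possible because the labels carry no replicate numbers, and the mouse numbers used here only name the mice. With 3 mice a group, levels of members that did not pass the test in edgeR are not shown to be equal.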
